A study of Mus musculus with 4 samples.

Results

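The folding stress genes of the endoplasmic reticulum examined here are 10 genes, Xbp1, Atf6, Ern1, Herpud1, Sdf2l1, Creld2, Edem1, Pdia4, Calr and Canx, taken by symbol from a table of 23847 rows. Each symbol stood on a single row, and all 10 were among the 11643 rows tested, which had at least 1 FPKM (fragments per kilobase of transcript and per unit of mapped depth) in at least 2 of the 4 libraries. The libraries hold RNA of trypsin-treated whole back-skin epidermis of mice at postnatal day 20. By the design text they come from 2 wild-type mice, Irx5+/+ and labelled WT, and from 2 mice given as Irx5-/- and labelled Irx5KO; each library was taken as 1 mouse. Irx5 encodes an Iroquois homeodomain factor. The labels give neither the allele nor the sex and do not say whether the mice were littermates. Levels are FPKM as deposited, always with replicate 1 before replicate 2, and means are ± SD over n = 2 libraries. Differences subtract WT from Irx5KO in log2(FPKM + 1) and carry limma's adjusted p.

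Proteins that enter the secretory pathway fold in the lumen of the endoplasmic reticulum, and unfolded protein there is sensed by the membrane proteins encoded by Ern1, Atf6 and Eif2ak3. Ern1 cuts Xbp1 mRNA into its active form, Atf6 is released by proteases as a transcription factor, and Eif2ak3 (PERK) phosphorylates eIF2alpha and thereby raises translation of Atf4. The targets of the 3 arms supply chaperones, disulphide isomerases, lectins that hold glycoproteins, and the machinery that returns misfolded chains to the cytosol for degradation. Keratinocytes use this pathway while they build desmosomes, secrete barrier lipids and handle the calcium of the upper epidermis.

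In Irx5KO epidermis the genes did not move together. Herpud1, of the degradation machinery, rose, the lectin chaperone Calr and the factor Xbp1 fell, and the sensors Atf6 and Ern1 and the membrane lectin Canx did not pass the test. Of the 10 genes 1 was called higher, where 26.9% of all rows tested were, and 2 were called lower, where 9.22% of all rows were. Their median difference was -0.11 log2 units, against 0.26 for all rows tested, and it turned to 0.11 against 0.50 after rescaling to a fixed sum (TPM). Both Irx5KO libraries lay above both WT libraries for 2 of the genes, against 54.3% of all rows. They lay below for 5 of them, against 18% of all rows, and the groups overlapped for the remaining 3. The summed FPKM of the 10 genes took 0.0946% and 0.0966% of the WT libraries and 0.0984% and 0.0926% of the Irx5KO libraries. Calr alone made up 55.2% and 52.8% of that sum in WT and 38.3% and 37.1% in Irx5KO, in the order of replicates 1 and 2.

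The counts among the 10 genes moved with the setting, as did the counts over all rows. With a pseudocount of 0.1, 1 gene was higher (25.9% of all rows) and 1 lower (9.02%). With no filter on low values none was higher (6.98%) or lower (3.86%). With a mean of at least 5 FPKM 1 of 9 was higher (23.6%) and 1 lower (9.87%). The median of ratios gave 1 higher (10.5%) and 4 lower (13.9%), TPM 2 higher (47.9%) and 1 lower (7.52%), and quantile normalization 1 higher (13.1%) and 2 lower (11.2%). Leaving out the trend gave 1 higher (26%) and 2 lower (9.28%), and robust empirical Bayes 1 higher (28.6%) and 2 lower (9.59%). A term for the replicate number gave 1 higher (28.4%) and 2 lower (10%). Without WT replicate 1 there were 2 higher (34.8%) and 2 lower (11%), and without WT replicate 2 there were 1 higher (21.1%) and 3 lower (8.98%). Without Irx5KO replicate 1 there were 1 higher (12.5%) and none lower (6.23%), and without Irx5KO replicate 2 likewise 1 higher (13.7%) and none lower (7.49%). In each case the percentage is that of all rows tested under the same setting.

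**Figure D1:**
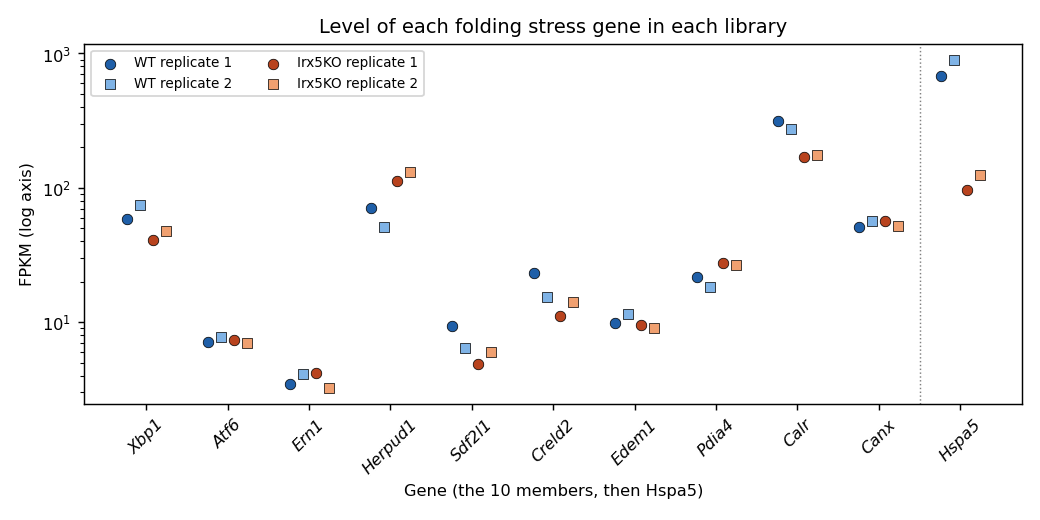
FPKM (log axis) of the 10 genes and of Hspa5 in each of the 4 libraries, with 1 point per library and no averaging. Herpud1 and Pdia4 are higher and Calr and Xbp1 lower in both Irx5KO libraries, the points of Atf6, Ern1 and Canx interleave, and Hspa5 drops from 681 and 889 to 95.9 and 124 FPKM.

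Facts of the libraries bear on every value. Irx5 read 17.4 and 16.4 FPKM in the WT pair against 10.01 and 10.08 FPKM in the Irx5KO pair, 59.5% of the WT mean (adjusted p = 0.0117), so its transcript was lower but present. Xist was at 36.6 and 33.9 FPKM in WT and under 0.1 in Irx5KO, and the Y-linked gene Eif2s3y at 70.9 and 75.7 FPKM in Irx5KO and under 0.1 in WT, so that sex and genotype cannot be told apart. Steps in the low values gave an estimated depth at which 1 FPKM, for a gene with 2000 bases of transcript, rests on between 94.01 and 108.2 fragments. The lowest level among the 10 genes was 3.24 FPKM. Keratinocyte markers were abundant in every library but not all stable. The summed level of 5 basal markers was 9779 to 9904 FPKM in WT and 5273 to 5898 FPKM in Irx5KO, and of these Krt14 fell from 4807 and 5211 to 1520 and 1576 FPKM (-1.69, adjusted p = 0.00439) while the other 4 did not pass. None of 5 suprabasal markers passed, their sum being 12151 to 16167 FPKM in WT and 11531 to 13915 FPKM in Irx5KO. Markers of plasma and B cells, which carry a large endoplasmic reticulum, were under 1 FPKM in all libraries for 5 of 6 genes, the exception being Sdc1, which keratinocytes express. All 6 fibroblast genes stayed below the filter, as did all 5 endothelial and all 5 mast cell genes, with Tpsb2 at 0 in every library.

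Among the sensors, Ern1, the kinase and endonuclease of the reticulum membrane (chromosome 11, 106394650 to 106487852, minus strand, mm10), was the least abundant of the 10 genes. It read 3.43 and 4.13 FPKM in the WT pair against 4.19 and 3.24 FPKM in the Irx5KO pair. The groups overlapped, and the difference of Ern1 was -0.02 with a 95% interval of -0.44 to 0.39 (adjusted p = 0.928). Atf6, the membrane-bound transcription factor (chromosome 1, 170704674 to 170867771, minus strand), read 7.14 and 7.81 FPKM in the WT pair against 7.36 and 6.98 FPKM in the Irx5KO pair. These groups overlapped too in FPKM, with a difference of Atf6 of -0.05 and an interval of -0.43 to 0.32 (adjusted p = 0.826). The intervals leave out a doubling or halving of either sensor transcript on this scale; they do not show that the levels were equal.

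Xbp1 encodes the basic leucine zipper factor downstream of Ern1 and lies on chromosome 11 at 5520659 to 5525893 on the plus strand. It read 58.8 and 74.3 FPKM in the WT pair against 41.002 and 47.96 FPKM in the Irx5KO pair, so both knockout libraries were below both controls. Its level fell to 66.8% of the WT mean (66.6 ± 10.98 against 44.5 ± 4.92 FPKM, log2 difference -0.57, SE 0.193, adjusted p = 0.0479). The call stood at the edge of the threshold and was lost under 9 of 13 alternative settings, with differences from -0.87 to -0.33 and adjusted p from 0.0178 to 0.345. The value covers all Xbp1 mRNA. Ern1 activity is read from the removal of a segment of 26 bases inside the coding sequence, which a value per gene does not show. That segment, in capitals with 15 bases of the GENCODE M21 transcript on each side, is printed to show what was not measured.
Xbp1 mRNA: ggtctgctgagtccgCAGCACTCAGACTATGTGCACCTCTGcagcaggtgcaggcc

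The ratio of Xbp1 to Ern1 within a library, which a single scaling factor per library cannot alter, was 17.1 and 17.98 in WT and 9.80 and 14.8 in Irx5KO. Against Atf6 the ratio of Xbp1 was 8.24 and 9.52 in WT and 5.57 and 6.87 in Irx5KO, again without overlap. Both ratios compare genes in units per length.

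The classical DNA elements of the pathway were then looked for in RefSeq promoter windows (GRCm38.p6), which run from 250 bases before to 50 bases after the start of a gene and were found for 9 of the 10 genes. The ER stress response element is CCAAT, a spacer of 9 bases and CCACG, and its second form is ATTGG, a spacer of 1 base and CCACG; both strands were searched. The first form stood in the windows of Calr, Canx and Creld2 and in 0.119% of all 32851 windows. The second form stood in the window of Herpud1 and in 0.0365% of all windows. CCACG alone, which is part of both, stood in 8 of the 9 windows, all but that of Xbp1, and in 32.8% of all. ACGTG stood in the windows of Calr and Herpud1 and in 19.6% of all, and TGACGTCA in none of the 9 and in 1.79% of all. In the Herpud1 window ACGTG overlaps the second form. The matches are read 5′ to 3′ on the strand of the gene, with the fixed letters of the element in capitals; where the element lies on the other strand, its complement is capitalised. They are printed because these genes differ in direction, with Hspa5 for comparison.
Herpud1, chr8:94386352-94386412, plus strand: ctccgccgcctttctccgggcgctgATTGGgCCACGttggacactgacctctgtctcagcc
Calr, chr8:84847050-84847118, minus strand: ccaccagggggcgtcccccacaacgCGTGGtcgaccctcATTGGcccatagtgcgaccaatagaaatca
Canx, chr11:50325775-50325843, minus strand: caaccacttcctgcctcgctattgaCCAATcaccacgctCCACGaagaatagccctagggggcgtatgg
Creld2, chr15:88819495-88819563, plus strand: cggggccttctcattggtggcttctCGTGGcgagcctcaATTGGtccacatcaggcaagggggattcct
Hspa5, chr2:34772000-34772068, plus strand: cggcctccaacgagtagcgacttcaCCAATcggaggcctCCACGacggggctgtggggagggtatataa

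The genes that carry these elements differed in direction. Herpud1 with the second form was higher, Calr and Creld2 with the first form had both Irx5KO libraries below WT, and Canx, also with the first form, overlapped. The element in Herpud1 spans bases -52 to -42 before the start site, that in Creld2 -126 to -108, that in Canx -145 to -127 and that in Calr -162 to -144. Across the genome 49 genes had either form in a window and 39 of them stood in the table, matched through older symbols where needed. Of the 27 tested, 3 were higher, 3 lower and 21 did not pass, with a median difference of 0.04 against 0.26 for all rows tested, of which 26.9% were higher and 9.22% lower. The 3 lower genes were Hspa5, Calr and Pdia6, all folding genes. The 3 higher ones were Herpud1 and, outside the folding pathway, Adcy3 (first form) and Lrif1 (second form). Among the calls the first form stood with both directions, and the second form, with Herpud1 and Lrif1, with higher genes only. Dnajb11, with the second form, had both Irx5KO libraries below WT, as 18% of all rows tested did (-0.30, adjusted p = 0.183). Dnajc3 and Ero1lb, with the first form, had both above, as 54.3% of all rows did (0.31 and 0.24, adjusted p = 0.159 and 0.269). None of them passed. All were named after their values were seen.

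Herpud1 encodes a membrane protein with a ubiquitin-like domain that helps assemble the degradation complex of the reticulum, and lies on chromosome 8 at 94386438 to 94395377 on the plus strand. It read 70.9 and 51.4 FPKM in the WT pair against 112.3 and 132 FPKM in the Irx5KO pair. Both knockout libraries were above both controls, and the mean reached 199.6% of WT (61.2 ± 13.8 against 122 ± 13.8 FPKM). Its log2 difference was 0.999 with a 95% interval of 0.52 to 1.48 (Herpud1 SE 0.213, limma adjusted p = 0.00817), above that of 94.6% of the rows tested. Scaled by the median of ratios, the Herpud1 difference was 0.70 (interval 0.24 to 1.15, limma adjusted p = 0.037), and in TPM it was 1.25. The call was kept in 12 of 13 alternative settings and lost with no filter on low values (adjusted p = 0.0568).

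Edem1 encodes a mannosidase-like protein that hands misfolded glycoproteins to the degradation machinery. It read 9.83 and 11.5 FPKM in the WT pair against 9.48 and 9.07 FPKM in the Irx5KO pair. Both knockout values lay below both controls by a small margin, with a difference of -0.18 (interval -0.56 to 0.21, adjusted p = 0.434). Under the median of ratios it was -0.45 (interval -0.85 to -0.06, adjusted p = 0.0917), which did not pass either. The whole interval of the Edem1 difference lies below that of Herpud1; the difference between them was not tested.

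The other genes of degradation from the reticulum were called higher at a share near that of all rows. Of 22 tested, out of 23 present, 7 were higher, 1 was lower and 14 did not pass (higher 26.9% and lower 9.22% of all rows). The median of the list was 0.35, against 0.26 for all rows, and 0.05 against -0.00 under the median of ratios. Sel1l, the adaptor of the ubiquitin ligase complex, went from 6.26 ± 0.0898 to 12.6 ± 1.52 FPKM (difference 0.90, adjusted p = 0.00500). Erlec1, a lectin of the same complex, went from 5.34 ± 0.756 to 11.3 ± 1.74 FPKM (0.95, adjusted p = 0.00558), and Derl2, a membrane protein of the exit channel, from 5.64 ± 1.04 to 10.7 ± 0.625 FPKM (0.82, adjusted p = 0.00918). Faf2, which recruits the extraction ATPase, rose by 0.77 (adjusted p = 0.00816; 0.0538 under the median of ratios). The gene that fell was Ube2j1, a ubiquitin-conjugating enzyme, from 24.8 ± 5.18 to 14.1 ± 1.51 FPKM (-0.77, adjusted p = 0.0165; named after its values were seen). The ligase gene Syvn1 differed by 0.01 and did not pass (likewise). The number that rose came to 3 under the median of ratios, where 10.5% of all rows rose, to 4 under quantile normalization (13.1%) and to 13 in TPM (47.9%). It came to 2 without Irx5KO replicate 1, to 3 without Irx5KO replicate 2 and to 2 with no filter.

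**Figure D2:**
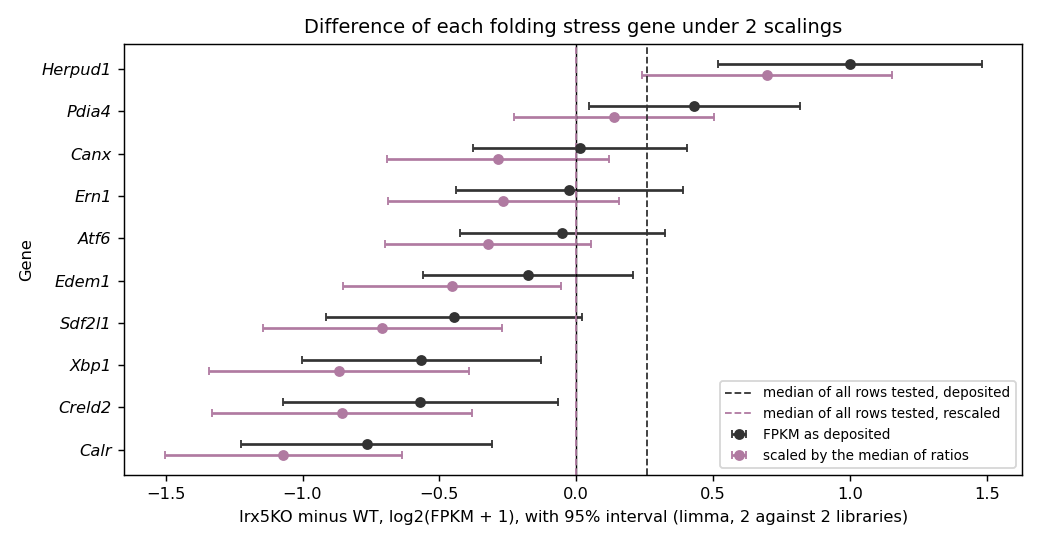
Difference of each of the 10 genes, Irx5KO minus WT, in log2(FPKM + 1), with its 95% interval from limma over 2 against 2 libraries. Dark points use FPKM as deposited and purple points the same values scaled by the median of ratios; dashed lines mark the median of all rows tested (0.26 and -0.00). Herpud1 stays above 0 and Calr, Creld2 and Xbp1 below 0 on both scales. After rescaling the interval of Pdia4 takes in 0, and those of Sdf2l1 and Edem1 leave it.

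Calr and Canx encode the paired lectin chaperones that hold newly made glycoproteins, Calr in the lumen and Canx in the membrane. Calr was the most abundant of the 10 genes and lies on chromosome 8 at 84841850 to 84846934 on the minus strand. It read 315 and 275 FPKM in the WT pair against 169.9 and 176 FPKM in the Irx5KO pair, with no overlap and little spread between the knockout libraries. It fell to 58.5% of the WT mean (295 ± 28.8 against 173 ± 4.08 FPKM, difference -0.77, interval -1.22 to -0.31, adjusted p = 0.0191). The Calr call was lost without Irx5KO replicate 1 (adjusted p = 0.141), without Irx5KO replicate 2 (0.103), under quantile normalization (0.121, difference -0.37) and with no filter (0.0517). Canx, on chromosome 11 at 50293961 to 50325673 on the minus strand, read 51.3 and 56.1 FPKM in the WT pair against 56.2 and 52.2 FPKM in the Irx5KO pair. The groups of Canx overlapped fully, with a difference of 0.01 and an interval of -0.38 to 0.41 (adjusted p = 0.958).

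The ratio of Calr to Canx within a library was 6.15 and 4.89 in WT and 3.02 and 3.36 in Irx5KO. The balance of the pair was thus lower in both knockout libraries, whatever single factor each library is scaled by. Under quantile normalization, which is no such factor, Calr differed by -0.37 and Canx by 0.07. The mean ratio in Irx5KO was 0.578 of that in WT; with 2 libraries a group, no exact permutation test can give a p under 0.33. The other genes of the calnexin cycle and of N-glycan processing gave no call in 8 tested of 10 in the table, with a median of 0.29. Those of smallest p were Uggt1, the sensor that returns glycoproteins to the lectins (0.39, adjusted p = 0.0949), Ganab (0.42, adjusted p = 0.0990), Lman1 (0.33, adjusted p = 0.156) and Man1b1 (0.33, adjusted p = 0.172). At an unadjusted p under 0.05 Uggt1 and Ganab passed, a looser threshold that more of all rows pass than the 26.9% called higher and 9.22% called lower. Under the median of ratios Uggt1 and Ganab differed by 0.12 and 0.13 (limma adjusted p = 0.595 and 0.619). In TPM 5 of the 8 rose, where 47.9% of all rows did.

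**Figure D3:**
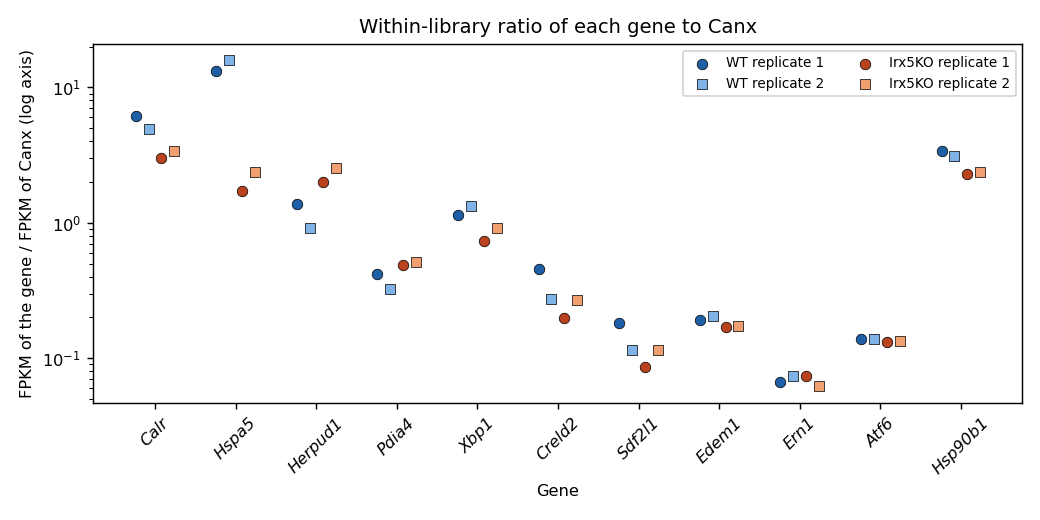
FPKM of each gene divided by FPKM of Canx in the same library (log axis), 1 point per library, a measure that a single scaling factor per library does not change. Calr, Hspa5, Xbp1, Creld2, Hsp90b1, Edem1 and, by a small margin, Atf6 have both Irx5KO points below both WT points, Herpud1 and Pdia4 have both above, and the points of Sdf2l1 and Ern1 interleave.

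Pdia4 encodes a disulphide isomerase of the lumen with several thioredoxin-like domains. It read 21.5 and 18.3 FPKM in the WT pair against 27.6 and 26.7 FPKM in the Irx5KO pair, both knockout libraries above both controls. The difference of Pdia4 was 0.43 (interval 0.05 to 0.82, adjusted p = 0.0757), which did not pass. After scaling by the median of ratios it was 0.14, and in TPM it was 0.68 (adjusted p = 0.00739). Relative to Calr, which itself fell, Pdia4 stood at 0.0682 and 0.0667 in WT and 0.162 and 0.152 in Irx5KO. Relative to Canx, Pdia4 differed less, at 0.419 and 0.326 in WT and 0.490 and 0.512 in Irx5KO.

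The other disulphide isomerases and oxidases held calls in both directions. Of 16 tested, out of 17 present, 2 were higher, 1 was lower and 13 did not pass, with a median of 0.16 (higher 26.9% and lower 9.22% of all rows). None of these calls was left without Irx5KO replicate 1, nor without Irx5KO replicate 2. The membrane-bound thioredoxins Tmx1 (12.3 ± 0.363 to 21.7 ± 0.158 FPKM, adjusted p = 0.00770) and Tmx3 (10.9 ± 0.962 to 17.96 ± 1.36 FPKM, adjusted p = 0.0156) rose. Pdia6, a lumenal isomerase whose window carries the first element form, fell from 87.8 ± 7.11 to 54.8 ± 3.14 FPKM (-0.67, adjusted p = 0.0197). Txndc12 differed by 0.44 (adjusted p = 0.0699). Under the median of ratios none rose and 1 fell, Tmx1 and Tmx3 losing their calls (adjusted p = 0.0614 and 0.134), and the list median turned to -0.08. In TPM 6 rose, where 47.9% of all rows did, and none fell.

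Sdf2l1 and Creld2 encode small lumenal proteins that are classical targets of the stress response, Sdf2l1 as a partner of the Hspa5 chaperone cycle and Creld2 as a protein with EGF-like repeats. Sdf2l1 read 9.28 and 6.43 FPKM in the WT pair against 4.86 and 6.03 FPKM in the Irx5KO pair. Both knockout libraries were lower, but WT replicate 2 and Irx5KO replicate 2 were close, and the difference of -0.45 (interval -0.91 to 0.02) did not pass (Sdf2l1 adjusted p = 0.119). Creld2 read 23.4 and 15.5 FPKM in the WT pair against 11.1 and 14.004 FPKM in the Irx5KO pair, with the same order of libraries. Its difference was -0.57 (interval -1.07 to -0.07, Creld2 adjusted p = 0.0726). Under the median of ratios, where the median of all rows moved to -0.00, both passed, Creld2 at -0.86 (adjusted p = 0.0208) and Sdf2l1 at -0.71 (adjusted p = 0.0302). They passed also without WT replicate 2, at -0.85 and -0.68. Relative to Canx the Creld2 libraries stayed apart, narrowly (0.276 in WT replicate 2 and 0.268 in Irx5KO replicate 2), while those of Sdf2l1 overlapped.

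Hspa5 (BiP), the lumenal Hsp70 that binds all 3 sensors, is no member of the group but the gene by which the pathway is usually read. It read 681 and 889 FPKM in the WT pair against 95.9 and 124 FPKM in the Irx5KO pair. The knockout mean was 14.02% of the WT mean, a far larger distance than for any of the 10 genes (Hspa5 difference -2.82, SE 0.24, adjusted p = 1.03e-04). The ratio of Herpud1 to Hspa5 was 0.104 and 0.0578 in WT and 1.17 and 1.06 in Irx5KO, which is 13.8 times higher in the means.

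The list of lumenal chaperones and cochaperones includes Hspa5. Of 18 genes 17 were tested, with 4 lower (9.22% of all rows), 1 higher (26.9% of all rows) and 12 not passing, and a median of -0.15 against 0.26 for all rows. Dnajb9, an Xbp1 target that regulates Ern1, fell from 48.1 ± 13.7 to 14.5 ± 4.60 FPKM (-1.67, adjusted p = 0.00203). Hyou1, a nucleotide exchange factor of Hspa5, fell from 22.9 ± 1.27 to 12.4 ± 0.140 FPKM (-0.83, adjusted p = 0.00583). Manf, a secreted stress-induced protein, fell by 0.77 (adjusted p = 0.0133; named after its values were seen). Dnajc10, a J protein with disulphide reductase activity, rose from 5.07 ± 0.413 to 9.40 ± 0.595 FPKM (0.78, adjusted p = 0.00867). Hsp90b1, the lumenal Hsp90, read 172 and 173 FPKM in the WT pair against 128.7 and 124 FPKM in the Irx5KO pair (-0.45, adjusted p = 0.0872). The median of this list turned to 0.04 in TPM, where 4 rose and 4 fell, and to 0.07 without WT replicate 1, with the same counts as in the main comparison.

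The arm of Eif2ak3 and Atf4, which shares genes with the immediate-early response, held some of the largest differences among the lists. Eif2ak3 itself differed by 0.33 (adjusted p = 0.156). Of the 15 genes of the arm 8 fell (9.22% of all rows), 2 rose (26.9% of all rows) and 5 did not pass, with a median of -0.77. Atf4 read 515 and 669 FPKM in the WT pair against 93.6 and 144 FPKM in the Irx5KO pair (-2.33, adjusted p = 4.75e-04). Atf3, listed also among the immediate-early genes, fell from 1997 ± 68.8 to 132 ± 96.8 FPKM (-4.13, adjusted p = 3.75e-04), and Ppp1r15a, a phosphatase subunit that reverses eIF2alpha phosphorylation, from 380.0 ± 29.6 to 63.2 ± 30.6 FPKM (adjusted p = 5.18e-04). Ddit3 (CHOP) fell less, from 40.8 and 36.6 FPKM to 18.3 and 23.2 FPKM (-0.88, adjusted p = 0.00761), and its exons overlap those of Mars on the opposite strand. Ddit4, an mTOR inhibitor also induced by glucocorticoids, rose from 41.01 ± 9.08 to 152 ± 37.6 FPKM (adjusted p = 8.03e-04). The direction of the list median held under every scaling tried.

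The proteases that release Atf6 in the Golgi rose, where Atf6 itself did not pass. Mbtps1 went from 20.7 ± 1.30 to 36.9 ± 4.12 FPKM (0.81, adjusted p = 0.00842) and Mbtps2 from 1.75 ± 0.028 to 3.79 ± 0.346 FPKM (0.80, adjusted p = 0.00706). Nfyb, a subunit of the factor that binds CCAAT, fell from 16.3 ± 0.358 to 10.4 ± 1.80 FPKM (-0.60, adjusted p = 0.0292). These were the 3 calls among 10 tested genes of the list of other sensors and their processing (higher 26.9% and lower 9.22% of all rows), and none was left without Irx5KO replicate 1. The list median of 0.17 turned to -0.08 under the median of ratios. Under the median of ratios Mbtps1 did not pass (adjusted p = 0.057).

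**Figure D4:**
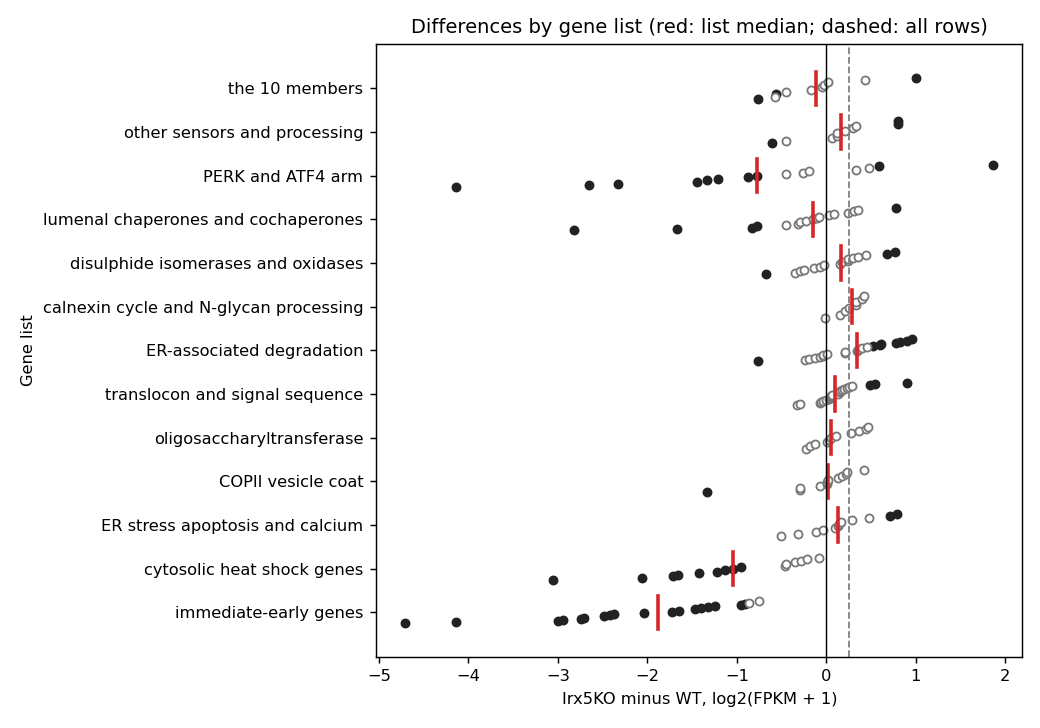
Difference of each tested gene, Irx5KO minus WT, in log2(FPKM + 1), by gene list. Filled points passed an adjusted p of 0.05, open points did not, red bars are list medians and the dashed line is the median of all rows tested (0.26). The 10 genes spread to both sides, the list of degradation lies mostly right of 0 on this scale, and the medians of the Atf4 arm (-0.77), the heat shock genes (-1.04) and the immediate-early genes (-1.88) lie left of it, with Ddit4 of the Atf4 arm at 1.86.

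Lists of general secretory machinery held few calls. Of all rows 26.9% were higher and 9.22% lower, and under the median of ratios 10.5% and 13.9%. Of 22 translocon and signal sequence genes 3 rose and none fell (median 0.09, and -0.19 under the median of ratios, where 1 rose and 2 fell), led by the signal peptidase subunit Spcs3 (10.9 ± 0.0659 to 21.3 ± 0.533 FPKM, adjusted p = 0.00379). The 11 genes of the oligosaccharyltransferase gave no call by limma (median 0.05, and -0.24 under the median of ratios). At an unadjusted p under 0.05, which more of all rows pass than were called, 2 passed. In TPM 4 of the 11 rose, where 47.9% of all rows did. Of 12 genes of the COPII vesicle coat 1 fell, Sec24a (15.8 ± 6.0 to 5.44 ± 0.150 FPKM, adjusted p = 0.00388), with a list median of 0.02 that turned to -0.24 under the median of ratios. Of 12 tested genes of apoptosis and calcium handling 2 rose, the calcium release channels Itpr2 (adjusted p = 0.00732) and Itpr3 (adjusted p = 0.0135), and none fell. Under the median of ratios neither channel passed and 2 other genes of that list fell.

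Some markers of other states and cells, but not all, differed between WT and Irx5KO beside these genes. The counts below stand beside 9.22% of all rows called lower and 26.9% called higher. The summed level of the 20 immediate-early genes was 13457 to 14429 FPKM in WT and 2888 to 5417 FPKM in Irx5KO, with 18 lower and none higher. For the 15 cytosolic heat shock genes it was 6556 to 7379 and 2567 to 3345 FPKM, with 9 lower and none higher. With no filter 11 immediate-early and 6 heat shock genes were lower (3.86% of all rows). Under the median of ratios 20 and 13 were lower (13.9% of all rows). Of 5 markers of Langerhans cells and macrophages 3 were lower, with a summed level of 515 to 816 FPKM in WT and 229 to 298 FPKM in Irx5KO. Of 5 sebocyte markers 1 was lower, Plin2 (-1.83, adjusted p = 0.00202), with a sum of 157 to 305 FPKM in WT and 123 to 163 FPKM in Irx5KO. Of 3 melanocyte markers tested 1 was lower, Dct (adjusted p = 0.0350), with a sum over 5 markers of 10.6 to 25.9 FPKM in WT and 7.74 to 9.15 FPKM in Irx5KO. Krt14 of the basal keratinocytes was lower as given above, and none of 4 T cell markers passed. In bulk RNA, fewer cells of a type and less RNA per cell cannot be told apart. The part of these differences in the values of the folding stress genes was not tested.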

How the data were processed

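Bulk RNA-seq of 4 libraries, 2 per genotype, was deposited by the authors as a single table of FPKM values with a column for each library. The submitters' processing notes list Bowtie2, DESeq2 and mm10, without versions; how FPKM was reached, with which annotation and whether by strand, is not given in the sources used here. Depth was estimated from low values of genes having 1 transcript: taking fragments as 200 bases, 68.4% to 70.5% of levels up to 10 fragments were whole within 0.1, where chance gives 20.0%. No count model was run.

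Rows were tested with limma 3.58.1 (R 4.3.3) on log2(FPKM + 1) with an intensity trend, 2-sided, adjusting by Benjamini-Hochberg across the 11643 rows, at 0.05; this scale understates changes of low levels. The script was tested on simulated data. Each library was taken as 1 mouse, and nothing on litters is labelled, so p-values reflect only the spread among these libraries. For each gene limma draws that spread partly from other rows, so it is not the SD printed beside the means. The 10 genes, the lists and the tests were chosen with earlier results of these data known; ratios within libraries were added after seeing the data. Besides the 10 genes, Hspa5, Hsp90b1, Ddit3 and Atf4, up to 4 tested genes of smallest p per list could be named; exceptions are marked. Positions are 1-based, from GENCODE M21 (mm10). Protein sequences were not used here.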

Additional observations from a re-analysis of the deposited data

How the results depend on the processing

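There were 13 alternatives (12 for Ern1, absent at a mean of 5 FPKM or more), and no called gene changed sign. Herpud1 lost its call only with no filter (0.999). Calr lost its call with no filter (-0.77), under quantile normalization (-0.37) and without Irx5KO replicate 1 (-0.74) or 2 (-0.79); the 4 fits that leave out 1 library gave -0.87 to -0.67. Xbp1 lost its call with a pseudocount of 0.1 (-0.58), no filter or the higher filter (both -0.57), TPM (-0.33), quantile normalization (-0.52), and without WT replicate 2 (-0.40), Irx5KO replicate 1 (-0.46) or Irx5KO replicate 2 (-0.68), and kept it without WT replicate 1 (-0.73). Creld2 passed under the median of ratios (-0.86), quantile normalization (-0.76) and without WT replicate 2 (-0.85; range over the 4 such fits -0.85 to -0.29). Sdf2l1 passed under the median of ratios (-0.71), quantile normalization (-0.73) and without WT replicate 2 (-0.68; range -0.68 to -0.21). Pdia4 passed in TPM (0.68) and without WT replicate 1 (0.54; range 0.32 to 0.54).

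Of the 10 genes, those called higher numbered 0 with no filter, 2 in TPM and 1 to 2 with 1 library left out. Those called lower numbered 1 with a pseudocount of 0.1, 0 with no filter, 1 with the higher filter, 4 under the median of ratios, 1 in TPM and 0 to 3 with 1 library left out. Of the other pathway genes 19 were higher, against 10 with no filter, 7 under the median of ratios, 50 in TPM, 12 under quantile normalization and 4 to 29 with 1 library left out. Over all rows 3127 were higher, against 1289 with no filter, 1898 with the higher filter, 1226 under the median of ratios, 5577 in TPM, 1527 under quantile normalization and 1457 to 4048 with 1 library left out. Rows called lower were 1073, against 712 with no filter and 1613 under the median of ratios. In the main comparison 178 of the other pathway genes were tested, with 19 higher and 42 lower. Of all rows 26.9% were higher and 9.22% lower. The 42 lower genes included 18 immediate-early and 9 heat shock genes. Those called lower numbered 28 with no filter, 56 under the median of ratios, 42 in TPM and 40 under quantile normalization. A fit without 1 library assumes that the lone library of its group varies like the other group.

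Same-numbered libraries did not deviate together (correlation -0.0674 over 11643 rows), and the labels do not pair the mice. With the replicate block Xbp1 did not pass (-0.57, adjusted p = 0.0579) and Creld2 passed (-0.57, adjusted p = 0.0343).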
